A study of Homo sapiens with 6 samples.

Results

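The genes described here encode the mitochondrial respiratory chain and the ATP synthase. They are all measured genes whose symbol starts with NDUF, UQCR, ATP5 or COX and a digit, together with SDHA, SDHB, SDHC, SDHD and CYC1, and they number 96 of the 16418 genes used. By role, 78 are subunits of the 5 complexes, 11 are assembly factors, and 7 share only a prefix with the others. All 96 are nuclear genes. The subunits encoded in mitochondrial DNA are not analysed here, and neither are COX4I2, COX6A2, COX8C, NDUFA4L2 and NDUFA13.

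The respiratory chain sits in the inner mitochondrial membrane. Complex I (NADH dehydrogenase) and complex II (succinate dehydrogenase) pass electrons to coenzyme Q, complex III (cytochrome bc1) passes them on to cytochrome c, and complex IV (cytochrome c oxidase) hands them to oxygen. Complexes I, III and IV pump protons out of the matrix, and the ATP synthase uses their return to make ATP. Complex II is the exception in that it pumps no protons and is also an enzyme of the citric acid cycle.

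RNA from 6 established human breast cancer lines was sequenced, with 1 library a line. UACC-812, labelled ductal carcinoma, grew in Leibovitz L-15 medium with glutamine, EGF and 20% fetal bovine serum. MDA-MB-415, labelled adenocarcinoma and taken from a pleural effusion, grew in L-15 with glutamine, insulin, glutathione and 15% serum. SKBR3, also labelled adenocarcinoma from a pleural effusion, grew in RPMI 1640 with 20% serum, and MDA-MB-453, labelled metastatic carcinoma from a pericardial effusion, in IMEM with 20% serum. T47D (ductal carcinoma) and CAL51 (breast carcinoma), both from pleural effusions, grew in RPMI 1640 with 10% serum. Each line comes from 1 tumour and differs from the others in origin and, in part, in medium, so the effects of line, culture and library cannot be told apart, and no difference carries a replicate error or a test.

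Depth, as recovered from the steps of low values, ran between 25600000 reads in UACC-812 and 36500000 reads in CAL51. Each value is read as an RPKM (reads per kilobase and per 1e+06 reads) added up over a gene's exons. No label gives this unit, which was inferred from the values, and the depth rests on it too. Levels are therefore compared between lines for 1 gene and not between genes. 3 reads in an exon of 150 bases were worth between 0.548 and 0.781, which covers counting error only. Of the 96 genes, 94 were above 0 in every line and 93 reached 5 in at least 1. In bulk RNA, fewer cells of a type and less RNA per cell cannot be told apart. The epithelial genes EPCAM, KRT8, KRT18 and KRT19 were at 1098 or more in every line, and CDH1 was at 0.823 in SKBR3. Of 5 leukocyte markers 2 to 4 were above 1, with summed values of 26.9 in UACC-812 to 298 in MDA-MB-415, while PTPRC was at most 18.8 and CD3E was listed at 0 in all lines but SKBR3. In MDA-MB-415 CD14 was at 176 and CD68 at 87.5, and CD68 was at 64.7 in MDA-MB-453 and LYZ at 55.2 in CAL51. Of 5 stromal markers 1 to 3 were above 1, with sums of 11.3 in SKBR3 to 285 in CAL51, and of 3 muscle markers 1 or 2, with sums of 2.08 in SKBR3 to 126 in UACC-812. The 2 endothelial markers summed to at most 23.8. Their part in the results was not tested.

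The unit of comparison is the relative difference, which is log2(value + 1) in a line minus the median of the 5 other lines, minus the same quantity's median over all genes in that line. That median over all genes was 0.09 in T47D, -0.46 in SKBR3, 0 in MDA-MB-453, 0.23 in CAL51, -0.01 in MDA-MB-415 and 0.19 in UACC-812. A relative difference of 1 is a 2-fold difference.

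Respiratory genes varied less between lines than genes in general. The median range from lowest to highest line was 3.52-fold over the 96 genes, against 5.15-fold over all genes and 4.79-fold over the 11614 genes with a mean log2 value above 3. Neither background was matched further by level. The smaller range was not particular to these genes. Mitochondrial ribosomal proteins had 2.995-fold, the citric acid cycle 2.955-fold, and regulators with mitochondrial DNA factors 3.38-fold. Coenzyme Q synthesis had 3.8-fold and carriers 4.48-fold. Complex II was the steadiest complex, with a median range of 1.96-fold. The 20 core subunits of complexes I, II and III and F1 subunits of the ATP synthase had a median range of 2.52-fold. The 45 accessory or nuclear-encoded subunits of complexes I, III and IV had 4.17-fold. The 11 assembly factors among the 96 genes had a median range of 4.15-fold, while 19 assembly factors outside the naming rule had 2.77-fold.

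Over all 96 genes the median relative difference was within 0.28 of 0 in every line, at -0.16 in T47D, 0.12 in SKBR3, -0.14 in MDA-MB-453, 0.00 in CAL51, -0.12 in MDA-MB-415 and 0.28 in UACC-812. In UACC-812, 21 of 96 were at least 2-fold above the other lines (20.6% of all genes were) and 10 at least 2-fold below (13.5% of all genes). As deposited, with no median subtracted, these counts were 30 (24.7% of all genes) and 6 (10.3%), and with upper-quartile scaling 28 (22.6%) and 6 (11.8%). Without SKBR3 among the other lines 5 were below, against 13.0% of all genes. In MDA-MB-415, 10 were above and 10 below, against 19.9% and 18.7% of all genes. Without T47D among the other lines 3 were above, against 20.5% of all genes. In SKBR3, 18 were above and 12 below, against 15.9% and 21.2% of all genes. The balance turned round as deposited, with 10 above and 24 below, against 9.41% and 33.2% of all genes. With TMM scaling, which sets the scale by a trimmed mean of ratios, it was 26 and 10, against 18.9% and 19.0%, and 24 and 9 with the median of genes with a mean log2 above 3 subtracted, against 19.2% and 17.7%. In MDA-MB-453, 3 were above and 13 below, against 12.9% and 15.9% of all genes. With TMM scaling 5 were above and 9 below, against 12.6% and 15.8%. The number above was 1 without MDA-MB-415 among the other lines (11.7% of all genes) and 5 without SKBR3 (13.2%), T47D (14.1%) or CAL51 (14.1%), and the number below was 8 without UACC-812 (14.5%). In T47D, 4 were above and 18 below, against 16.2% and 11.5% of all genes. In CAL51, 3 were above and 7 below, against 20.9% and 18.0% of all genes. As deposited 7 were above and 3 below, against 26.0% and 14.5%, and 5 were above without SKBR3 (20.9% of all genes) or MDA-MB-453 (21.1%) among the other lines. Over the genes with a mean log2 value above 3, UACC-812 had 17.8% above and 15.3% below, while T47D had 13.6% above and 11.7% below.

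**Figure D1:**
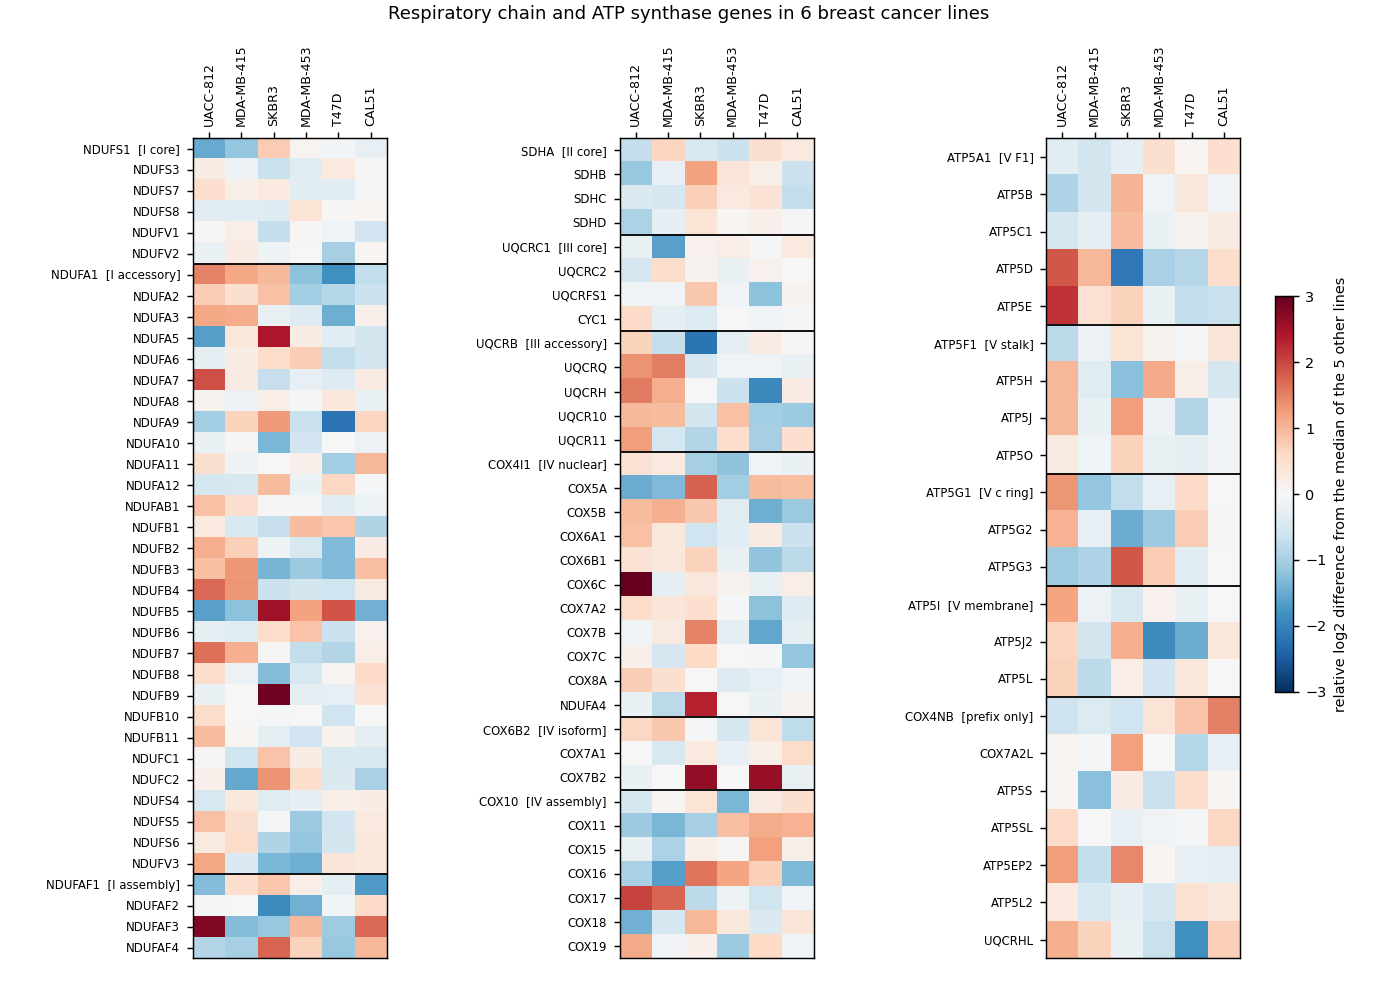
Relative log2 difference of 95 of the 96 genes (rows, grouped by complex and role) in each of the 6 lines (columns), with red for above and blue for below the median of the 5 other lines. The colour scale ends at 3 in either direction; only COX6C in UACC-812, at 3.44, lies beyond it.

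UACC-812 had the highest value of the 6 lines for 45 of the 96 genes, against 20.9% of all genes. With each line's median over all genes subtracted, the count was 34, against 18.7% of all genes. T47D had the lowest value for 20, against 7.84% of all genes, and for 23 after the subtraction, against 10.2%. SKBR3 had the lowest value for 39, against 33.4% of all genes, and for 24 after the subtraction, against 21.3%. It had the highest value for 14, against 7.82%, and for 28 after the subtraction, against 13.1%. CAL51 had the highest value for 19, against 27.9% of all genes, and for 10 after the subtraction, against 23.9%.

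Complex I has 36 subunits among the measured genes, 7 of them core subunits that carry the electron path and 29 accessory subunits that surround it. The core subunits had medians near those of all genes, with a relative difference between -0.16 (SKBR3) and 0.07 (MDA-MB-415). The accessory subunits had a median of 0.22 in MDA-MB-415 and 0.48 in UACC-812, against -0.46 in T47D and -0.285 in MDA-MB-453.

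Among the core subunits, NDUFS1, a large iron-sulphur subunit of the electron path, had 909.8 in MDA-MB-415 and 819 in UACC-812, against 2037 in T47D, 2501 in SKBR3, 2144 in MDA-MB-453 and 2018 in CAL51. Both lines grown in L-15 stood more than 2-fold below the rest. NDUFV1, the subunit that binds NADH, had 421 in SKBR3, against 927 in T47D, 947 in MDA-MB-453, 749 in CAL51, 1056 in MDA-MB-415 and 1091 in UACC-812. NDUFV1 thus did not share the pattern of NDUFS1, its partner in the NADH-oxidising arm. NDUFV2 was lowest in T47D, at 308, against 374 to 696 elsewhere. NDUFS3, NDUFS7 and NDUFS8 had ranges of 2.54-fold, 1.81-fold and 2.19-fold over the lines.

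The accessory subunits held the widest differences of complex I. NDUFB9 had 1372 in SKBR3, against 227 in T47D, 206 in MDA-MB-453, 392 in CAL51, 251 in MDA-MB-415 and 249 in UACC-812. SKBR3 lay 3.49-fold above the next line, and the other 5 lay within 1 doubling of each other. NDUFA5 was also highest in SKBR3, at 473, against 121 in T47D, 142 in MDA-MB-453, 114 in CAL51 and 153 in MDA-MB-415, and it was lowest in UACC-812, at 50.7. SKBR3 and UACC-812 thus stood at opposite ends, each more than 2-fold beyond every other line. NDUFB8 and NDUFA10 were low in SKBR3. NDUFB8 had 77.5 there, against 189 to 408 in the 5 others, and NDUFA10 had 140.5, against 334 to 527. Both gaps shrank to under 2-fold when the lines' medians over all genes were subtracted.

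NDUFA7 had 259 in UACC-812, against 56.3 in T47D, 30.6 in SKBR3, 58.3 in MDA-MB-453, 81.3 in CAL51 and 69.1 in MDA-MB-415. NDUFA9, which binds near the junction of the membrane and matrix arms, was low in T47D, at 141, against 339 to 714 in the 5 others. NDUFB5 split the lines into 2 sets of 3, with 1883 in T47D, 2037 in SKBR3 and 1116 in MDA-MB-453, against 479.7 in CAL51, 473 in MDA-MB-415 and 414 in UACC-812. NDUFA8 was the steadiest subunit of complex I, with a range of 1.55-fold.

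The 4 complex I assembly factors, which help build the complex and do not stay in it, varied widely and not together. NDUFAF3 had 127 in CAL51 and 262 in UACC-812, against 32.6 in T47D, 21.0 in SKBR3, 65.2 in MDA-MB-453 and 25.9 in MDA-MB-415. NDUFAF4, the partner of NDUFAF3 in an early assembly step, did not follow it: it had 7.69 in T47D, 8.01 in MDA-MB-415 and 10.2 in UACC-812, against 26.3 in SKBR3, 17.0 in MDA-MB-453 and 25.1 in CAL51. NDUFAF2 was lowest in SKBR3, at 49.8, and highest in CAL51, at 457. NDUFAF1 was lowest in CAL51, at 31.7, and highest in MDA-MB-415, at 110.0.

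Complex II differed least between lines, and its 4 subunits were all below the median of the other lines in UACC-812, where their median relative difference was -0.84. SDHB, the iron-sulphur subunit, had 1257 in T47D, 1764 in SKBR3, 1379 in MDA-MB-453, 937 in CAL51, 1046 in MDA-MB-415 and 657 in UACC-812. UACC-812 was the lowest and SKBR3 the highest. SDHD, a membrane anchor, had 127 in UACC-812, against 175 to 244 in the 5 others. SDHA, the flavin subunit, had 605 in SKBR3, 725 in MDA-MB-453 and 786 in UACC-812, against 1159 in T47D, 1138 in CAL51 and 1213 in MDA-MB-415. SDHC, the other anchor, ran between 394 in T47D and 222 in MDA-MB-415. Only 1 of the 4 subunits, SDHB, was beyond 2-fold in any line, in UACC-812 and SKBR3.

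Complex III has 4 core and 5 accessory subunits among the measured genes. Its 5 accessory subunits, the small proteins UQCRB, UQCRQ, UQCRH, UQCR10 and UQCR11, were all highest in UACC-812, with a median relative difference of 1.25 there, -1.0 in T47D, -0.54 in SKBR3, -0.10 in MDA-MB-453, 0.04 in CAL51 and 0.96 in MDA-MB-415. The 4 core subunits stayed between -0.19 and 0.12 in median over the 6 lines.

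UQCRH, the hinge protein that holds cytochrome c1, had 203 in T47D, 523 in SKBR3, 465 in MDA-MB-453, 728 in CAL51, 1117 in MDA-MB-415 and 1773 in UACC-812. T47D was 2.28-fold below the next line and both L-15 lines were above the rest. UQCRB, which binds near the coenzyme Q site, had 184 in SKBR3, against 1211 in T47D, 966 in MDA-MB-453, 1167 in CAL51, 705 in MDA-MB-415 and 1741 in UACC-812. SKBR3 lay 3.82-fold below the next line. UQCRQ had nearly the same value in both L-15 lines, 451 in MDA-MB-415 and 453 in UACC-812, against 156 in T47D, 80.2 in SKBR3, 147 in MDA-MB-453 and 158 in CAL51. UQCR11 was highest in UACC-812, at 657, and lowest in SKBR3, at 138.

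Among the core subunits, UQCRC1, a large matrix-facing protein, was low in MDA-MB-415, at 591, against 1829 in T47D, 1460.1 in SKBR3, 2050.3 in MDA-MB-453, 2584 in CAL51 and 1786 in UACC-812. UQCRC2, its partner, had its highest value in that same line, 1527, and a range of 1.60-fold. UQCRFS1, the Rieske iron-sulphur protein, was low in T47D, at 57.0, against 117 to 150.1 in the others. CYC1, cytochrome c1, ran between 162 in SKBR3 and 500.3 in UACC-812.

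Complex IV is represented by 11 widely expressed nuclear subunits and 3 tissue isoforms, since its catalytic subunits are encoded in mitochondrial DNA. NDUFA4, once counted in complex I, is placed here. The 11 nuclear subunits had a median relative difference of -0.23 in T47D, 0.59 in SKBR3, -0.30 in MDA-MB-453, -0.30 in CAL51, 0.30 in MDA-MB-415 and 0.44 in UACC-812.

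COX6C had the largest departure of any of the 96 genes from its nearest line. It had 4013 in UACC-812, against 319 in T47D, 324 in SKBR3, 351 in MDA-MB-453, 436 in CAL51 and 288 in MDA-MB-415. UACC-812 was 9.18-fold above the next line. NDUFA4 had 1160.4 in SKBR3, 2.84-fold above the next line, against 304 in T47D, 326 in MDA-MB-453, 409 in CAL51, 184 in MDA-MB-415 and 323 in UACC-812. COX7B was low in T47D, at 135, against 306 to 735 in the others.

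COX4I1 and COX5A bind each other on the enzyme as the first subunits added, and they had different orders over the lines. COX4I1 had 789.9 in MDA-MB-415 and 999 in UACC-812, against 647 in T47D, 238 in SKBR3, 286 in MDA-MB-453 and 659.7 in CAL51. COX5A had 272 in MDA-MB-415 and 283 in UACC-812, against 691 in T47D, 839 in SKBR3, 337 in MDA-MB-453 and 746 in CAL51. Both L-15 lines were above the other 4 for COX4I1 and below them for COX5A. COX5B, a zinc-binding subunit, had 568 in MDA-MB-415 and 593 in UACC-812, against 134 in T47D, 347 in SKBR3, 270.4 in MDA-MB-453 and 188 in CAL51.

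Tissue isoforms were at or near 0, and they are given here beside the widely expressed form without a comparison of levels between genes. COX7A2 ran between 107 in T47D and 378 in UACC-812, while COX7A1, the heart and muscle form, was at most 1.15. COX6B1 ran between 279 in T47D and 775 in UACC-812, and the testis form COX6B2 was at most 2.52. COX7B2, another testis form, was listed at 0 in 4 lines and had 5.50 in T47D and 3.54 in SKBR3. COX6A1 and COX8A, whose muscle or testis partners are not analysed here, had ranges of 3.44-fold and 2.35-fold.

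The 7 complex IV assembly factors had their extremes in different lines. COX17, the copper chaperone that supplies the enzyme's copper centres, had 234 in MDA-MB-415 and 326 in UACC-812, against 53.8 in T47D, 32.2 in SKBR3, 69.8 in MDA-MB-453 and 77.2 in CAL51. COX19, also a copper-handling protein, had 8.06 in MDA-MB-453 and 44.3 in UACC-812 as its extremes. COX11, which inserts copper, was low in the L-15 lines and SKBR3, with 92.8 in SKBR3, 98.2 in MDA-MB-415 and 138 in UACC-812, against 320.0 in T47D, 257 in MDA-MB-453 and 335 in CAL51. COX10 and COX15, which make the heme A of the enzyme, had their extremes in other lines: COX10 was low in MDA-MB-453, at 17.9, against 37.5 to 76.3 elsewhere, and COX15 was high in T47D, at 433, against 90.5 to 228. COX16 ran between 2525 in MDA-MB-453 and 608 in MDA-MB-415, and COX18 between 36.6 in CAL51 and 12.4 in UACC-812.

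**Figure D2:**
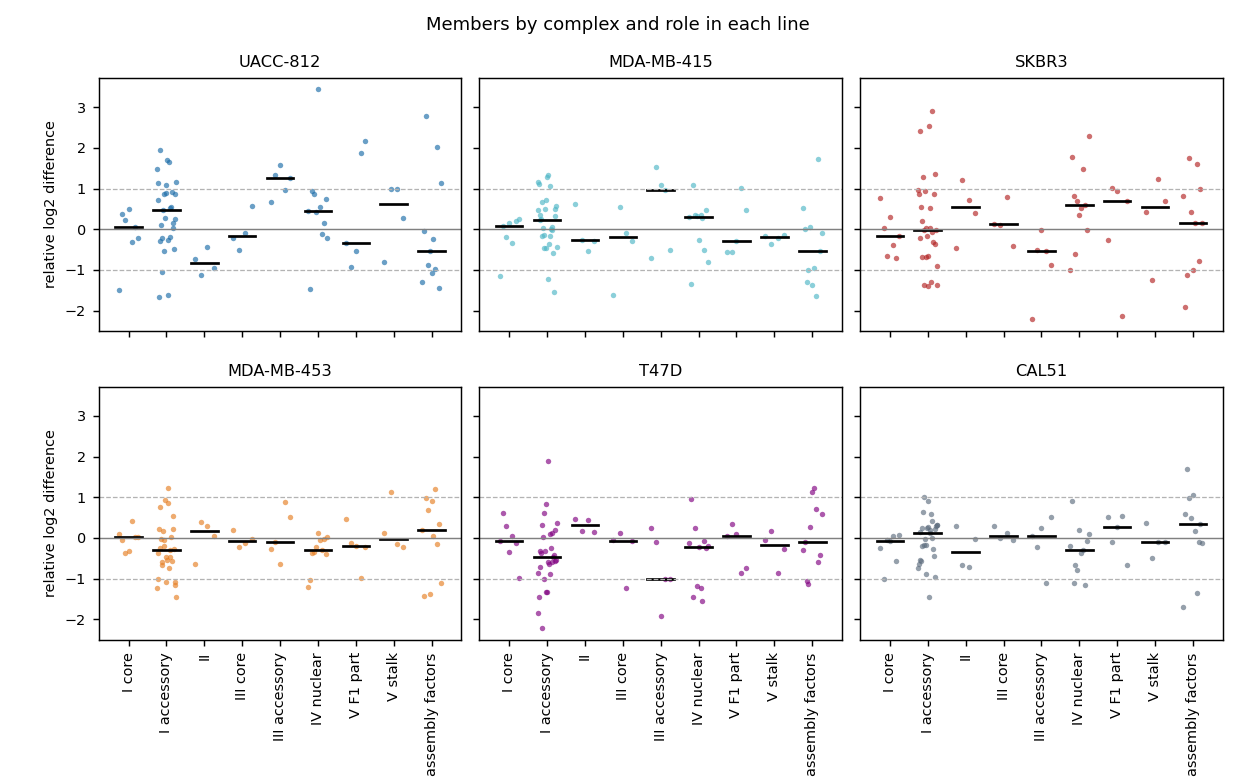
Relative log2 difference (vertical axis) of each gene, 1 panel a line, by complex (I to IV, and V for the ATP synthase) and role, with the median of each group as a black bar and 2-fold in either direction as broken lines. The accessory subunits of complex III have medians of -1.0 in T47D and 1.25 in UACC-812, while the medians of the core subunits of complexes I and III lie between -0.19 and 0.12.

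The ATP synthase has 15 subunits among the measured genes. Its F1 part, which makes ATP in the matrix, split by subunit. ATP5B, the catalytic beta subunit, had 4473 in MDA-MB-415 and 3999 in UACC-812, against 8213 in T47D, 8940.2 in SKBR3, 6090.2 in MDA-MB-453 and 6638 in CAL51. ATP5C1, the gamma subunit of the rotor, had 799 in MDA-MB-415 and 771 in UACC-812, against 979 in T47D, 1192 in SKBR3, 859.5 in MDA-MB-453 and 1221 in CAL51. For both, the L-15 lines were the lowest. ATP5A1, the alpha subunit, was lowest in SKBR3, at 3069, and highest in CAL51, at 7637.

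For the small rotor subunits delta and epsilon, the L-15 lines were instead the highest. ATP5D had 307 in MDA-MB-415 and 639 in UACC-812, against 153 in T47D, 42.3 in SKBR3, 132 in MDA-MB-453 and 262 in CAL51. On the values as deposited its 14.8-fold range was the widest of the 96 genes. The extremes were UACC-812 and SKBR3, whose median differences over all genes were 0.19 and -0.46. ATP5E had 291 in MDA-MB-415 and 1092 in UACC-812, against 159 in T47D, 248 in SKBR3, 212 in MDA-MB-453 and 185 in CAL51. UACC-812 stood 3.74-fold above the next line for ATP5E and 2.08-fold for ATP5D, and the ATP5D gap fell below 2-fold after the subtraction of each line's median over all genes.

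In the peripheral stalk, which holds F1 in place, ATP5H was low in SKBR3, at 655, against 2151 in T47D, 3925 in MDA-MB-453, 1789 in CAL51, 1672 in MDA-MB-415 and 4079.9 in UACC-812. ATP5O, the stalk protein that caps F1, had the smallest range of the 96 genes, 1.46-fold, with values of 235 to 343. ATP5F1 was lowest in UACC-812, at 664, and highest in CAL51, at 1506, and ATP5J lowest in T47D, at 185, and highest in UACC-812, at 655. Of the membrane subunits, ATP5I was 2.21-fold above the next line in UACC-812, at 167, against 35.8 to 75.2. ATP5J2 ran between 70.7 in MDA-MB-453 and 321 in UACC-812, and ATP5L between 113 in MDA-MB-415 and 302 in UACC-812.

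The proton-carrying c ring is made of 1 protein encoded by 3 genes, ATP5G1, ATP5G2 and ATP5G3, which differ in the import sequence that is cut off. Their order over the lines differed. ATP5G3 had 789 in T47D, 2076 in SKBR3, 1342 in MDA-MB-453, 928 in CAL51, 484 in MDA-MB-415 and 502 in UACC-812. ATP5G1 had 388 in T47D, 126 in SKBR3, 243 in MDA-MB-453, 288 in CAL51, 127 in MDA-MB-415 and 699 in UACC-812. The ratio of their values, ATP5G3 over ATP5G1, was 2.04 in T47D, 16.5 in SKBR3, 5.52 in MDA-MB-453, 3.22 in CAL51, 3.81 in MDA-MB-415 and 0.718 in UACC-812. Since values are read as sums over exons, the ratio is compared between lines and not taken as the share of each gene. ATP5G2 followed ATP5G1 at its extremes, with 68.8 in SKBR3 and 527 in UACC-812.

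Of the 7 genes that share a prefix, 3 are near copies of subunit genes with low values. UQCRHL had between 1.43% and 2.76% of the UQCRH value, ATP5EP2 between 0.495% and 2.73% of that of ATP5E and ATP5L2 between 1.15% and 2.17% of that of ATP5L. Reads shared with these copies could be split by the counting, so their own values are uncertain. UQCRHL was lowest in T47D like UQCRH. COX7A2L, a factor that joins complexes III and IV into supercomplexes, had 248 in SKBR3, against 85.0 in T47D and 139 to 173 in the others. COX4NB, a subunit of a membrane-protein complex of the endoplasmic reticulum whose gene adjoins COX4I1, was highest in CAL51, at 177, unlike COX4I1. ATP5S and ATP5SL had ranges of 3.14-fold and 2.92-fold.

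A gene was counted as apart in a line when it lay at least 2-fold beyond every other line on log2(value + 1) and reached 5 in at least 1 line. By this rule 20 of the 96 genes were apart, and NDUFA5 and ATP5D were so in 2 lines. UACC-812 had 6 above (4.91% of all genes were) and 1 below (0.95% of all genes). SKBR3 had 3 above (1.39% of all genes) and 5 below (8.86%). T47D had 5 below (1.02% of all genes) and 0 above (2.34%). MDA-MB-415 had 1 below (3.3%) and 0 above (5.82%), MDA-MB-453 had 1 below (2.49%) and 0 above (1.49%), and CAL51 had 0 in either direction, against 7.75% above and 4.11% below over all genes. The T47D genes were NDUFA9, UQCRFS1, UQCRH, COX7B and the near copy UQCRHL. With each line's median over all genes subtracted, T47D had 6 below (1.18% of all genes) and 1 above (2.3%). UACC-812 then had 5 above (4.36%) and 1 below (1.19%), and SKBR3 had 4 above (2.54%) and 3 below (5.41%). The single low gene of MDA-MB-453, COX10, then no longer passed.

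**Figure D3:**
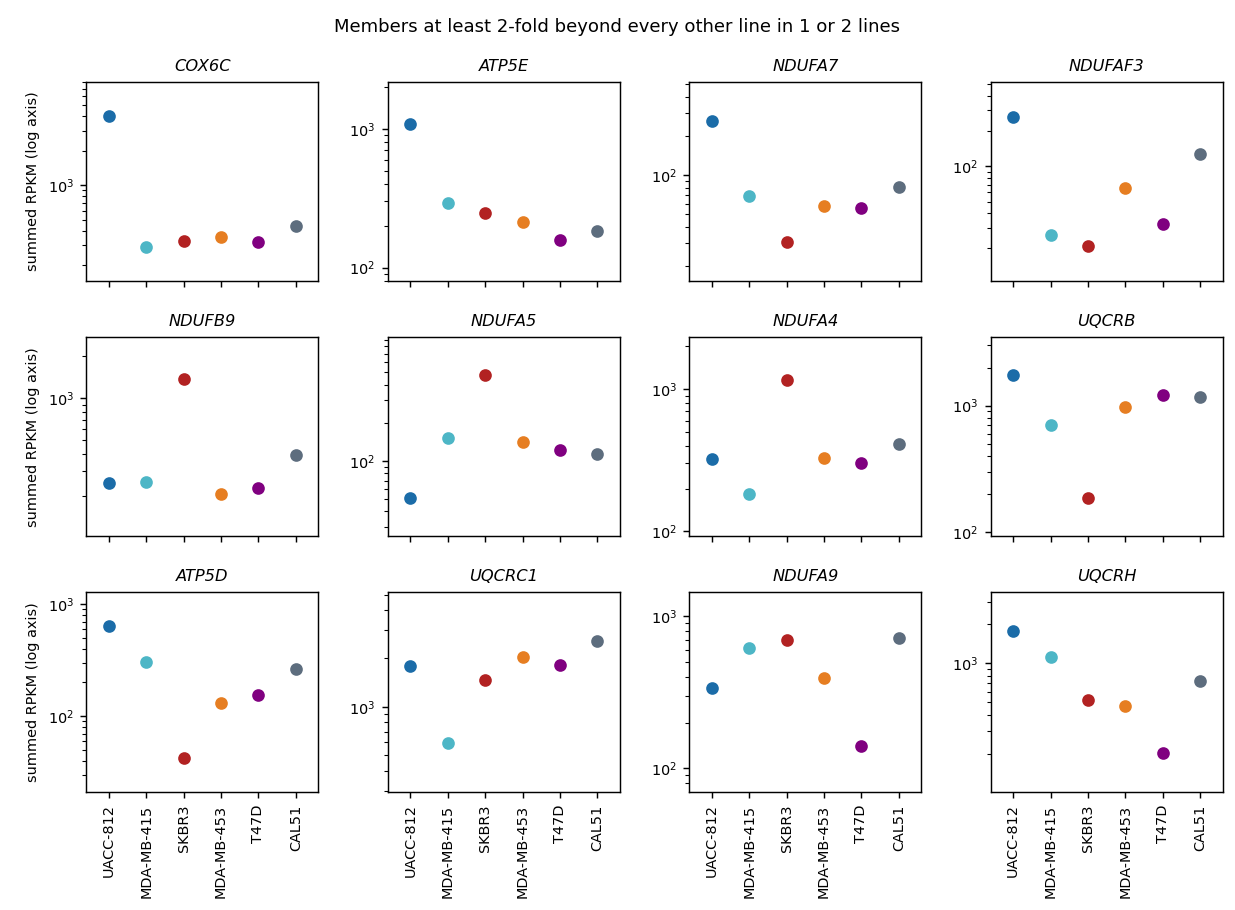
Value in each of the 6 lines (summed RPKM, log axis, a different range in each panel) for 12 of the 20 genes that stood apart in a line. UACC-812 is alone at 4013 for COX6C, SKBR3 alone at the top for NDUFB9, NDUFA5 and NDUFA4 and at the bottom for UQCRB and ATP5D, and T47D alone at the bottom for NDUFA9 and UQCRH.

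Genes next to these on the chromosome were compared too. For each of the 22 pairs of gene and line, the median relative difference of the 10 nearest measured genes on each side was taken in that line (ATP5I had 9 before it and 10 after it). It had the sign of the gene in all 22 pairs. Over all genes apart by the same rule, this held for 71.5% of 7114 pairs. In 9 of the 22 pairs (40.9%) the neighbours' median was in the outer 5% of such medians over all genes of that line, against 16.9% over all genes apart.

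The neighbours were furthest off around NDUFB9 in SKBR3, on chromosome 8, where their median was 1.63 and 15 of 20 were at least 2-fold above. Around UQCRC1 in MDA-MB-415, on chromosome 3, the median was -1.58 and 13 of 20 were at least 2-fold below. Around ATP5E in UACC-812, on chromosome 20, it was 1.54 and 15 of 20 were at least 2-fold above. NDUFA5 and NDUFA4, both on chromosome 7, had neighbours' medians of 1.01 and 1.07 in SKBR3, and UQCRB, on chromosome 8, of -1.11. COX6C in UACC-812 stood out from its surroundings: it was 3.44 above while its neighbours' median was 0.35, with 6 of 20 at least 2-fold above, and the genes on either side, VPS13B and FBXO43, were at -0.29 and -0.44. UQCRH in T47D was at -1.93 while its neighbours' median was -0.32. What neighbouring genes share that could give them 1 direction was not tested.

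**Figure D4:**
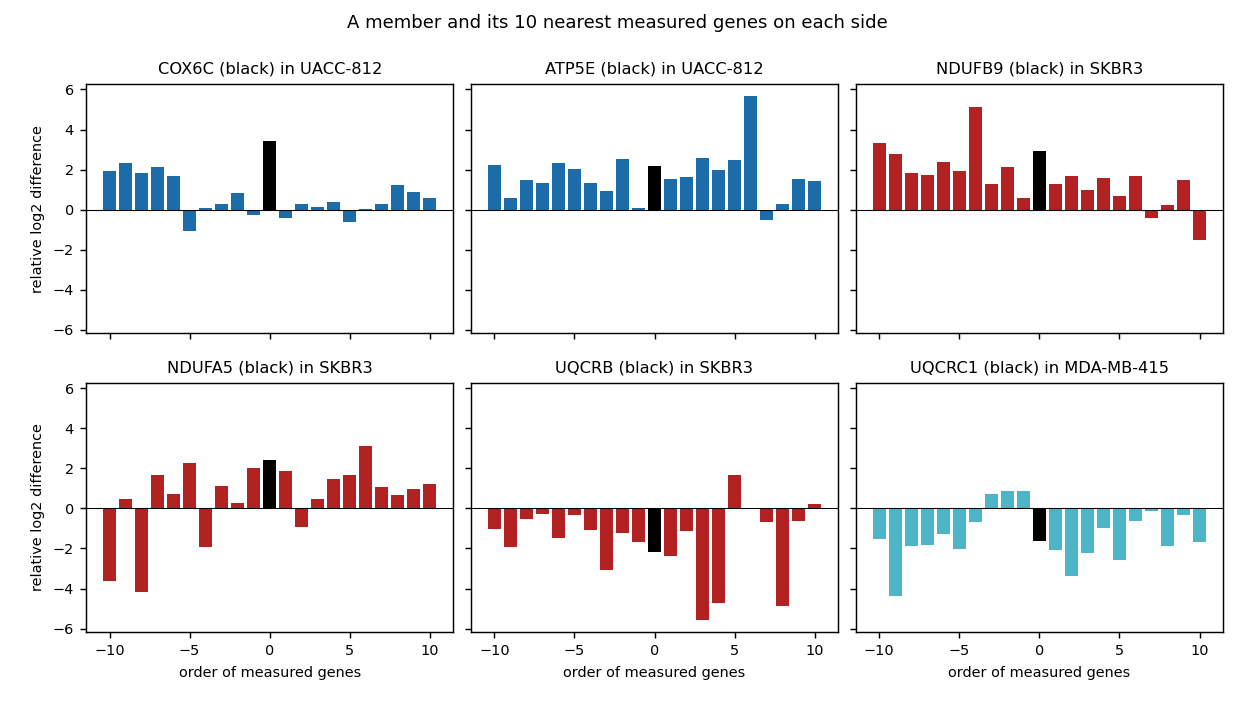
Relative log2 difference (vertical axis) of 6 genes (black bars) and of the 10 nearest measured genes on each side in their order on the chromosome (coloured bars), in the line named above each panel. Of 20 neighbours, 19 of ATP5E and 18 of NDUFB9 are above 0 and 18 of UQCRB and 17 of UQCRC1 are below 0, while the genes beside COX6C are at -0.29 and -0.44.

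Growth medium divides the lines into UACC-812 and MDA-MB-415, grown in L-15, and the 4 others. L-15 is a medium that carries galactose in place of glucose, and cells on galactose are known to depend more on respiration. Both L-15 lines were above all 4 others for 20 of 96 genes, against 10.7% of all genes, and below all 4 for 10 of 96, against 8.98% of all genes. Over genes with a mean log2 value above 3 the shares were 10.2% and 11.5%. Counting only those of the 96 genes that reached 5, 19 were above and 10 below, since COX6B2 was at most 2.52. With 2 lines against 4 there are 15 ways to choose the pair, so no exact test could reach 0.05, and medium and line cannot be told apart. The genes above included 15 of the 45 accessory or nuclear-encoded subunits of complexes I, III and IV, while 3 of these 45 were below. Among the 20 core subunits and F1 subunits, 3 were above (NDUFV1 and the small rotor subunits ATP5D and ATP5E) and 4 below. The 4 subunits of complex II gave 0 above and 1 below.

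The gap was widest for COX17, whose lower L-15 line stood 1.59 log2 units above the highest of the 4 others, and for UQCRQ, at 1.51. Next came NDUFB4, with 159 in MDA-MB-415 and 237 in UACC-812, against 41.0 to 89.3 in the 4 others. NDUFA3 had 295 in MDA-MB-415 and 349 in UACC-812, against 69.1 to 179. COX5B followed, with a gap of 0.71 log2 units. NDUFB7 had 81.7 in MDA-MB-415 and 141 in UACC-812, against 29.6 to 52.0. NDUFA1, which is needed for assembly of complex I, had 388 in MDA-MB-415 and 558 in UACC-812, against 74.2 to 251. The others above were ATP5D, ATP5E, COX4I1, COX6B1, COX6B2, COX7A2, COX8A, NDUFA2, NDUFAB1, NDUFB2, NDUFV1, UQCR10 and UQCRH. The gap was narrow for some of them, at 0.06 for NDUFA2, 0.07 for UQCR10 and 0.09 for COX6B1.

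The genes below in both L-15 lines were NDUFS1, ATP5G3, ATP5B, COX5A, SDHD, COX18, NDUFA12, ATP5F1, ATP5C1 and NDUFB5. NDUFS1 had the widest gap, with the higher L-15 line 1.15 log2 units under the lowest of the 4 others. NDUFB5 had the narrowest, 0.02. With each of the 4 other lines left out in turn, the number above was 21 without SKBR3 (12.3% of all genes), 20 without MDA-MB-453 (13.1%), 23 without T47D (16.1%) and 26 without CAL51 (16.4%). The number below was 16 without SKBR3 (14.7% of all genes), 10 without MDA-MB-453 (10.5%), 13 without T47D (11.4%) and 13 without CAL51 (10.8%).

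Transcript length, taken as the median over all annotated protein-coding transcripts of a gene, moved with this pattern. This median need not be the length of the mRNA that a line makes. It was 586 bases for UQCRC2 and 1878 bases for ATP5E. The median transcript length was 665 bases for the 20 genes above, 859 bases for the 10 below and 750 bases for the 95 of 96 with a known length. Of the 41 genes of up to 700 bases, 12 were above and 2 below, and of the 54 longer ones 8 were above and 8 below (14.8% each). Over genes with a mean log2 above 3, 8.83% of those of up to 700 bases were below. In the longer length ranges 5.87% to 13.1% of such genes were above and 9.02% to 17.4% below. Spearman's rho between length and the difference of the L-15 lines from the 4 others was -0.33 over these 95 genes and -0.11 over 10967 genes with a mean log2 above 3, all points sharing the same 6 libraries. In UACC-812 the median relative difference was 0.64 for the genes of up to 700 bases and -0.03 for the longer ones. The part of length in the result was not tested. Among all measured genes of up to 700 bases with a mean log2 above 3, 13.2% were above in both L-15 lines, against 29.3% of the respiratory genes of that length.

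**Figure D5:**
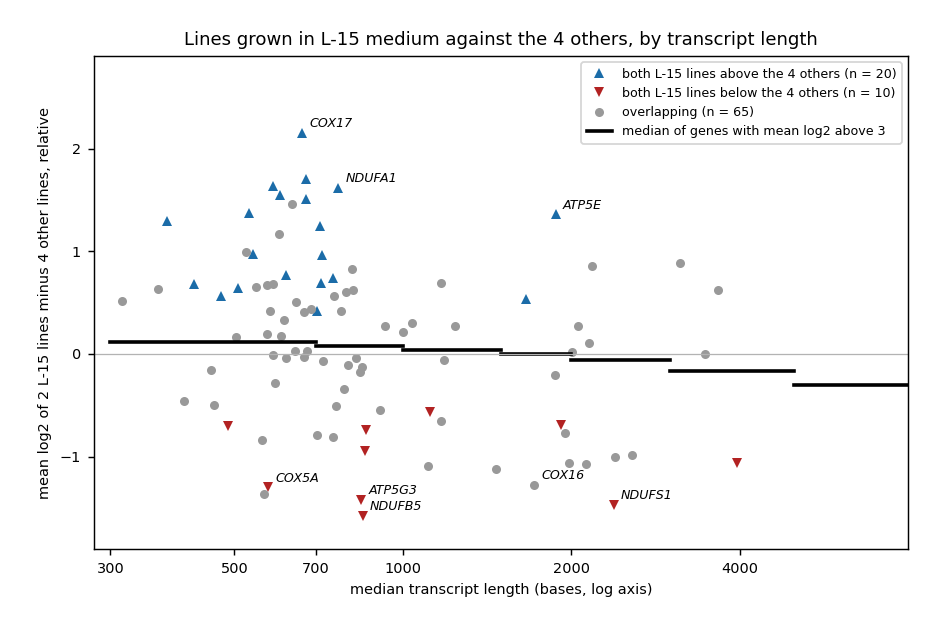
Mean log2 value of the 2 lines grown in L-15 minus that of the 4 others, relative to all genes (vertical axis), against median transcript length in bases (horizontal log axis), for 95 genes. Length is the median over all annotated protein-coding transcripts of a gene. Upward and downward triangles mark genes whose L-15 lines were above or below all 4 others, and black bars give the median over all genes with a mean log2 above 3 in each length range. Of the 20 upward triangles 12, and of the 10 downward triangles 2, are at 700 bases or less.

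Nuclear respiratory genes are known to be regulated by NRF1, by ETS factors of the GABP type and by YY1, so their promoters were searched on both strands for the NRF1 palindrome made of GCGCA and its reverse complement TGCGC, for CCGGAAG (ETS) and for AAGATGGCG (YY1), motifs that do not contain one another. RefSeq promoters (GRCh38.p14) were found for 77 of the 96 genes. In the 250 bases before the start, the ETS motif was in 24.7% of them, against 8.52% of all 35116 promoters and 17.0% of those of measured genes with a mean log2 above 3. The NRF1 motif was in 6.49%, against 1.03% and 2.07%. In the 50 bases from the start, the YY1 motif was in 10.4%, against 1.04% and 3.06%. In the other window, the upstream YY1 motif was in 1.3%, against 0.652% and 1.17%, the downstream ETS motif in 5.19%, against 1.93% and 4.06%, and the downstream NRF1 motif in 0 of 77, against 0.108% and 0.196%. Of the genes above in both L-15 lines, 7 of 19 with a promoter had an upstream ETS motif and 2 an NRF1 motif, and of those below, 2 of 7 had an ETS motif and 3 an NRF1 motif, so both motifs occurred on either side.

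To show a motif in its place, the 4 upstream stretches of at least 200 bases that lie outside every annotated exon and hold one are given, among the genes whose L-15 lines did not overlap the others. They are RefSeq sequences of GRCh38.p14. All 4 belong to genes above in both L-15 lines. Each reads 5′ to 3′ on the strand of the gene, with the motif in capitals. The stretch of COX17 is at chr3:119677455-119677656 on the minus strand and holds an NRF1 motif. That of NDUFB4 is at chr3:120596086-120596308 on the plus strand and also holds an NRF1 motif. That of NDUFB7 is at chr19:14572067-14572316 on the minus strand and that of COX5B at chr2:97645812-97646039 on the plus strand, and both hold an ETS motif.
COX17: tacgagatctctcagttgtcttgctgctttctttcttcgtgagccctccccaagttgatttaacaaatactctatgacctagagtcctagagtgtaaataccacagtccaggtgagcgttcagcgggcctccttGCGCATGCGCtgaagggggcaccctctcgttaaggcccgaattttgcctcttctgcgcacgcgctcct
NDUFB4: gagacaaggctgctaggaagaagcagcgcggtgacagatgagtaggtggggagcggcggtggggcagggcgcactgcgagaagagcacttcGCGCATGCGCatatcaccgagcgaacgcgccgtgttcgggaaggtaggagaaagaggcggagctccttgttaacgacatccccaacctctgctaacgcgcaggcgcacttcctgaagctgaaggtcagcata
NDUFB7: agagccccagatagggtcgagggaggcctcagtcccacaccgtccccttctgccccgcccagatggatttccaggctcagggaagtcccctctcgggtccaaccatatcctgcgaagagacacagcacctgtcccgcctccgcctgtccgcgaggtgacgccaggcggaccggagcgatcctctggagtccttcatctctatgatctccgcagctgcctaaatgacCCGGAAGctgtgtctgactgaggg
COX5B: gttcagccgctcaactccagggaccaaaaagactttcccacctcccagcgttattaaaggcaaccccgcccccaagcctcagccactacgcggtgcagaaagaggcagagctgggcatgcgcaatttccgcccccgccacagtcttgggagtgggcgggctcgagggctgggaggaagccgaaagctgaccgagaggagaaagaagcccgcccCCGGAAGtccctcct
The first NRF1 base lies 116 bases before the start in COX17 and 159 bases before it in NDUFB4. The first ETS base lies 24 bases before the start in NDUFB7 and 37 in COX5B. A match shows only that these letters are present.

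In the L-15 lines a mixed list of regulators and mitochondrial DNA factors had medians below those of all genes, unlike the accessory subunits. Of 17 genes that regulate nuclear respiratory genes or copy and express mitochondrial DNA, 1, ESRRA, was above in both L-15 lines (10.7% of all genes were) and 6 were below (8.98% of all genes). Their median relative difference was -0.09 in T47D, 0.40 in SKBR3, 0.35 in MDA-MB-453, 0.23 in CAL51, -0.61 in MDA-MB-415 and -0.77 in UACC-812. ESRRA was above only narrowly, with 74.2 in UACC-812 against 73.2 in SKBR3. The 6 below were TFB2M, TFAM, SSBP1, POLRMT, POLG2 and MTERF, which copy or express mitochondrial DNA. The regulators of nuclear respiratory genes lay on both sides of 0 in MDA-MB-415, from 1.05 for PPARGC1A to -1.51 for PPRC1. In UACC-812 most were below 0: PPARGC1A at -2.78, PPARGC1B at -1.50, GABPB1 at -1.28, YY1 at -0.91, PPRC1 at -0.42 and ESRRA at -0.12. GABPA was at 0.29 there and NRF1 at 0.0001. TFB2M, a mitochondrial transcription factor, had 103 in MDA-MB-415 and 47.2 in UACC-812, against 216 in T47D, 288 in SKBR3, 445 in MDA-MB-453 and 156 in CAL51. TFAM, which packages mitochondrial DNA, had 584 in MDA-MB-415 and 471 in UACC-812, against 767 to 1155 in the 4 others. SSBP1, which binds its single strands, had 608 in MDA-MB-415 and 496 in UACC-812, against 1054 to 1318. PPARGC1A, the coactivator PGC-1 alpha, was listed at 0 in SKBR3 and read 2.35 in UACC-812, against 17.9 to 38.0 in the others. The transcription factor NRF1 itself had 58.3 in MDA-MB-415 and 67.8 in UACC-812, against 55.5 to 134, so the groups overlapped, as they did for GABPA, with 114 in MDA-MB-415 and 227 in UACC-812, against 135 to 253.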

How the data were processed

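Single-end RNA sequencing of 6 lines was analysed, 1 library each. Libraries came from DNase-treated total RNA with the PrepX mRNA kit, per the labels' protocols. CASAVA 1.8, RSEM (no version) and hg19 are named in the submitters' processing notes. Further settings are not given in the sources used here. The deposited values are read as RPKM summed by the authors over a gene's exons, a unit inferred from the values. Of single-exon genes with low values, 32.5% to 39.0% a library were whole within 0.01 reads, which gave the depth but not counts per gene, so no count model was used. Of 16444 rows, 22 with names turned into dates and 4 with duplicated names were left out. Values were compared as log2(value + 1), which understates differences of low genes, with Python 3.11 tools, and the calculation was tested on simulated data. Named genes are those apart in a line, the core subunits, the isoform families and the 2 widest-ranging genes reaching 5 of each of 7 outside lists; values of further genes were added after they were seen. Values of 1 core subunit and 1 leukocyte marker are not reported here. The members and lists were chosen with earlier results of these data known. Alternatives were other pseudocounts, scalings, references, subsets and leaving out lines; transcript lengths and exons came from GENCODE v29 and the order of genes from RefSeq, both of a later build than hg19, so no member coordinates are given in hg19.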

Additional observations from a re-analysis of the deposited data

How the results depend on the processing

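With 1 library a line, the results rest on single libraries, and line, medium and depth cannot be separated. No paired analysis was possible because each line has 1 library and the labels give no replicate numbers. Of the recomputed medians and counts, 1114 stayed within the interval of the median over genes or within 1.5 times the count, and 54 moved further. Another 3 medians, whose interval lay on 1 side of 0, changed sign. Medians whose interval spanned 0 also changed sign in places and are counted among the 1114 or the 54. The median over all 96 genes in MDA-MB-415 and in SKBR3 did so. For complex II, with 4 genes, the interval is the range of its genes, so staying within it shows little. The cause of these changes was not tested. Of the 54, 21 are counts beyond 2-fold in a line, given above where a scaling turned their balance or 1 line decided them, and 8 are medians of lists outside the naming rule. Counts not given there were 6 below in MDA-MB-415, 2 above in T47D and 0 above in CAL51 with subunits only, 7 below in MDA-MB-453 against the mean of the other lines and 5 above in CAL51 with a pseudocount of 0.1. The other medians and counts that moved follow. As deposited, the median over all 96 genes was -0.34 in SKBR3 and 0.23 in CAL51, that of complex I -0.48 in SKBR3 and 0.26 in CAL51, and that of complex IV -0.0466 in SKBR3. With the median of genes with a mean log2 above 3, TMM or upper quartiles as the scale, the median in MDA-MB-415 was 0.0725, 0.0869 and 0.103 over all 96 genes. For the ATP synthase it was -0.10, -0.10 and -0.11 in that line, and -0.16 against the mean of the 5 other lines. TMM and upper quartiles gave 0.35 and 0.37 for complex I in MDA-MB-415, -0.12 and -0.14 for all 96 genes in CAL51, and -0.13 and -0.14 for the ATP synthase in CAL51. With 1 of the 5 other lines left out at a time, the median ran between -0.0988 and 0.0352 over all 96 genes in CAL51, 0.139 and 0.337 for complex II in T47D, -0.494 and -0.0867 for the ATP synthase in MDA-MB-415 and -0.172 and 0.127 for the ATP synthase in CAL51. The number below in both L-15 lines was 10 to 16 with 1 of the 4 other lines left out, 16 without SKBR3. The split by length was chosen after the data were seen. Genes of up to 700 bases had a median of 0.64 in UACC-812 and longer ones -0.0295. In MDA-MB-453 the longer genes had a median of 0.0002, against -0.14 over all 96, a change of sign. Among the lists outside, as deposited, the mitochondrial ribosomal proteins had 0.35 in UACC-812, -0.44 in SKBR3 and 0.34 in CAL51, glycolysis 0.71 and coenzyme Q synthesis 0.12 in UACC-812. In MDA-MB-415 the mitochondrial ribosomal proteins had -0.0896 with TMM and -0.057 with upper quartiles, and the carriers had -0.25 in MDA-MB-453 without MDA-MB-415. The list of regulators and mitochondrial DNA factors had -0.055 in SKBR3 as deposited. The mitochondrial ribosomal proteins had 0.0091 in MDA-MB-415 with the median of genes above a mean log2 of 3 subtracted. Both are changes of sign.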

Other observations

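The 76 measured mitochondrial ribosomal proteins, which translate the mitochondrially encoded subunits, had median relative differences of -0.08 in T47D, 0.02 in SKBR3, -0.06 in MDA-MB-453, 0.10 in CAL51, -0.18 in MDA-MB-415 and 0.16 in UACC-812, with 7 above and 12 below in both L-15 lines, against 10.7% above and 8.98% below over all genes. MRPS21 had 1088 in UACC-812, against 67.3 to 143 in the others, and MRPS28 had 425 in SKBR3, against 26.6 to 133. The 19 assembly factors outside the naming rule had medians between 0.33 in SKBR3 and -0.55 in MDA-MB-415, with 0 above and 3 below in the L-15 lines, against 10.7% and 8.98% of all genes. Among them TMEM70, an ATP synthase assembly factor, was highest in SKBR3, at 62.2, against 5.62 to 22.9, and LRPPRC, which stabilises mitochondrial transcripts, had 1715 in MDA-MB-415 and 2837 in UACC-812, against 4631 to 9267 in the others.

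Of 14 electron and energy carriers and regulators, 0 were above and 3 below in both L-15 lines, against 10.7% and 8.98% of all genes, with medians between 0.11 in T47D and -0.41 in MDA-MB-415. The near-identical mitochondrial creatine kinases CKMT1A and CKMT1B, whose reads cannot be separated with confidence, were lowest in CAL51, at 60.7 and 74.4, against 578 to 2368 and 694 to 2820.0. The 10 genes of coenzyme Q synthesis had 2 above and 3 below, against 10.7% and 8.98% of all genes, with medians between 0.22 in MDA-MB-453 and -0.24 in CAL51. Of these, COQ2 was highest in CAL51, at 272, against 21.2 to 98.0, and COQ4 in T47D, at 103, against 13.8 to 57.0. The 18 genes of the citric acid cycle and pyruvate dehydrogenase had 3 above and 3 below, against 10.7% and 8.98% of all genes, with medians between 0.36 in SKBR3 and -0.43 in MDA-MB-415. IDH3G was lowest in SKBR3, at 124, against 276 to 767, and PC, which feeds the cycle, highest in MDA-MB-415, at 404, against 53.7 to 212.

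The 24 glycolysis genes had 4 above and 0 below in both L-15 lines, against 10.7% and 8.98% of all genes. Their median relative difference was -1.29 in T47D, -0.06 in SKBR3, -0.07 in MDA-MB-453, -0.23 in CAL51, 0.72 in MDA-MB-415 and 0.52 in UACC-812. LDHB, a lactate dehydrogenase subunit, had 50.2 in T47D, 2433 in SKBR3, 12.4 in MDA-MB-453, 10132 in CAL51, 1689 in MDA-MB-415 and 610.5 in UACC-812. ENO2 was lowest in SKBR3, at 0.3, against 74.2 to 724.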
